A study of Mus musculus with 12 samples.

Results

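The p53 pathway genes described here are the gene for p53 itself (Trp53), its regulators and its direct targets outside the BCL-2 and death receptor families, 30 genes in all. They were chosen by name from what is known of the pathway, and all 30 were found by Entrez gene number among the 27179 genes of the count table. The RNA came from bone marrow of C57BL/6 mice, from which B220high IgM+ CD93- cells, mature B cells, had been sorted. There were 4 groups of 3 libraries, 12 in all, which the series describes as biological replicates. Young wild-type mice (GroupB) were 9, 10 and 11 weeks old, and old wild-type mice (GroupA) were 98, 99 and 100 weeks old. The apoptosis-sensitive group had the genotype Bak-/- Baxfl/fl and the apoptosis-resistant group the genotype Bak-/- BaxD/D, both at 10 weeks, so that both lacked Bak and the resistant group lacked Bax as well. The Cre line that deleted Bax is not given in the sources used here. Each replicate number stood for one collection date shared by a pair of groups: 24 March, 11 April and 12 April for the young and old wild type, and 30 May, 31 May and 7 May for the sensitive and resistant groups.

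p53 is a transcription factor that is kept scarce by the ubiquitin ligase Mdm2 and its partner Mdm4. DNA damage and other stresses release it from them, and it then binds DNA as a tetramer and switches on genes for cell cycle arrest, DNA repair, antioxidant defence and cell death. Mdm2 is itself a target, which closes a feedback loop. Much of the control of p53 acts on the protein, so its mRNA level and its activity are separate quantities, and only mRNA was measured here. BAX and BAK are the effectors of mitochondrial apoptosis, and cells without either cannot die by that route.

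Total counts per library ran from 13474162 to 23539764. The targeted gene was checked first: Bax stood at 55.7, 56.2 and 100 CPM (reads of a gene scaled to a fixed library size after TMM adjustment) in sensitive libraries 1 to 3 and at 4.96, 6.42 and 8.36 CPM in resistant libraries 1 to 3. Bak1 read 24.7 to 47.8 CPM over the 6 wild-type libraries and 6.17 to 14.4 CPM over the 6 Bak1-deficient ones, and a gene-level count also takes reads from parts of a gene that were not deleted. The sum of 8 B cell markers was 14595 to 20705 CPM in every library. The first principal component of all genes, 31.9% of the variance, set both 24 March libraries apart, at 69.3 and 89.2 against -31.1 to 18.3 for the other 10. Both 7 May libraries and the young 24 March library carried the highest sums of 12 immediate early genes, which respond within minutes to handling or stimulation: 6506 CPM in sensitive library 3, 2370 in young library 1 and 1524 in resistant library 3, against 373 to 954 in the other 9.

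In these B cells the pathway was transcribed over a wide range of levels. Per kilobase of exon, averaged over 12 libraries, the antiproliferative gene Btg2 was the highest of the 30 at 134 CPM per kb. It was followed by the stress-response gene Sesn1 at 49.1, Trp53inp1, a cofactor that promotes p53 activity, at 42.1, cyclin G1 (Ccng1) at 38.7 and Trp53 at 35.3. The damage-recognition gene Ddb2 and Mdm2 both stood at 24.1 and Mdm4 at 22.3. From 4.57 to 12.4 CPM per kb lay 13 genes: Tob1, Rrm2b, Ei24, Gadd45a, Xpc, Pidd1, Ercc5, Plk3, Aen, Tigar, Sesn3, Plk2 and Polk. Below them came Trp53inp2 (3.36 CPM per kb), Sesn2 (3.06), Slc19a2 (2.97), Cgrrf1 (2.70), Cdkn1a (2.28), Zmat3 (2.25), Phlda3 (1.46) and Psrc1 (1.14). The adenylate kinase gene Ak1 had 0 to 8 reads per library and was the 1 member not tested, leaving 29 of 30.

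Between the resistant and sensitive groups the largest fitted increases were in targets of low abundance, Phlda3, Cdkn1a and Psrc1. All 3 resistant libraries stood above all 3 sensitive ones in 8 of 29 members (Cdkn1a, Phlda3, Zmat3, Psrc1, Ccng1, Mdm2, Ei24 and Slc19a2), where 6.32% of all 13592 genes tested did the same. They stood below in 3 members (Trp53, Tob1 and Pidd1), against 8.31% of all genes. In edgeR's quasi-likelihood fit over the 4 groups, 0 of 29 members passed an adjusted p of 0.05 (Benjamini-Hochberg over all genes), and only 6 of 13592 genes did (0.0441%). At an unadjusted p under 0.05 there were 6 members, 4 higher and 2 lower, against 4.9% of all genes. With the collection date as a block, which the shared dates justify, 6 members were higher (Cdkn1a, Phlda3, Psrc1, Zmat3, Ccng1 and Mdm4), against 1.43% of all genes, and 1 was lower (Tob1), against 1.97%. DESeq2 without the block called 2 members, Cdkn1a and Phlda3, against 0.792% of the genes it tested. Over the 29 members, 19 had a fitted change above 0, and their median log2 fold change was 0.05, beside -0.016 over all genes.

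**Figure D1:**
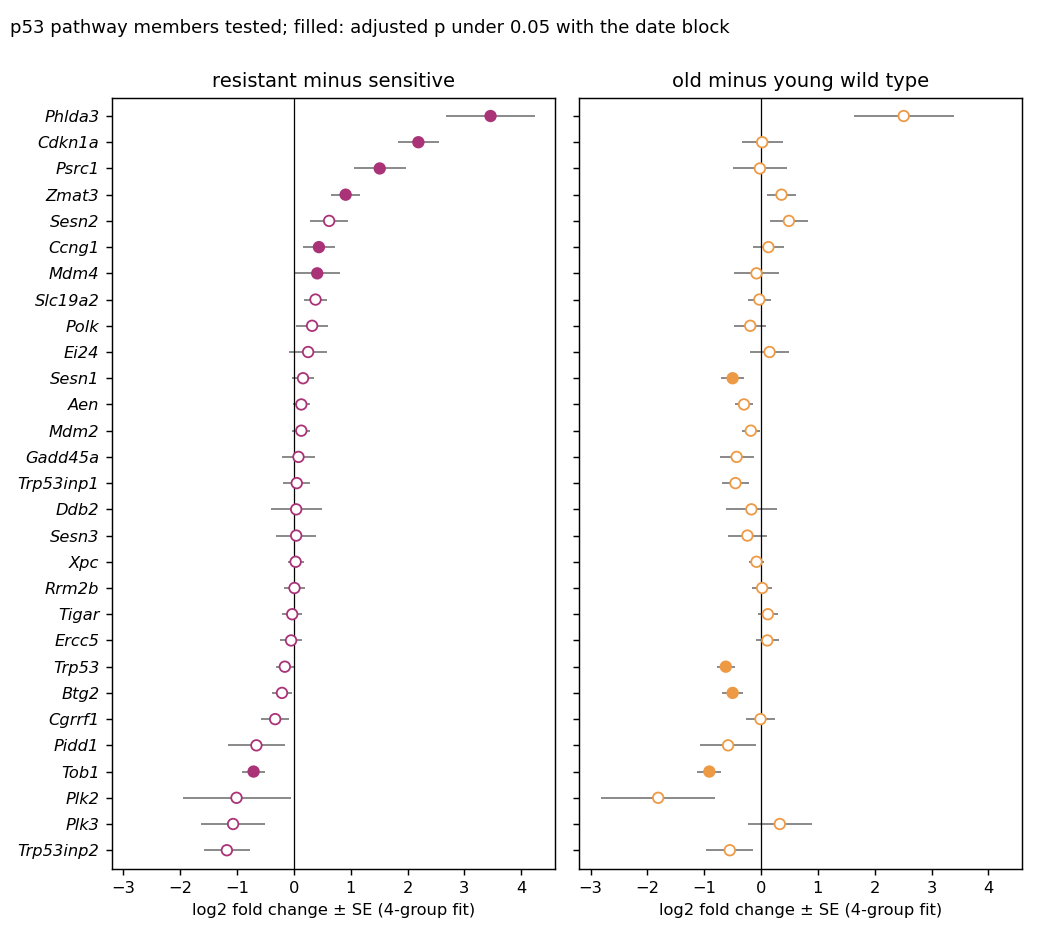
Log2 fold change with its standard error from the fit over 4 groups, for each of the 29 members tested, resistant minus sensitive on the left and old minus young wild type on the right; filled points had an adjusted p under 0.05 with the date block. On the left 6 filled points lie right of 0 and 1 left of it, while on the right the 4 filled points all lie left of 0.

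Cdkn1a (chromosome 17, 29090979 to 29100722, GRCm38.p6) encodes p21, the inhibitor of cyclin-dependent kinases through which p53 arrests the cell cycle. It read 3.16, 4.41 and 6.78 CPM in sensitive libraries 1 to 3 and 20.4, 21.6 and 23.5 CPM in resistant libraries 1 to 3. In young wild type it read 3.53, 1.50 and 3.62 CPM and in old wild type 2.89, 3.17 and 2.63 CPM. Every resistant library thus stood above every one of the other 9, and within each date the resistant library was higher, by 6.46-fold, 4.91-fold and 3.47-fold. The log2 fold change was 2.19 ± 0.36 (SE, n = 3 and 3) with an edgeR adjusted p of 0.0843, and 2.24 ± 0.28 with an adjusted p of 0.0022 with the date block. The call depended on the fit: over 15 alternatives the adjusted p ran from 1.38e-06 with DESeq2 to 0.434 without the 7 May libraries, and was 0.0285 with no filter on low counts. Within the block, leaving out any 1 of the 3 dates kept it between 0.00998 and 0.0249.

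Because Cdkn1a, Ccng1, Mdm2 and Trp53 had the p53 half-site consensus, a 10-letter element of which p53 tetramers bind a pair, within the 250 bases before a RefSeq start, a stretch of each is shown with its match in capitals, read 5′ to 3′ on the gene's own strand (RefSeq sequences, GRCm38.p6). They are the promoter stretch of a member far higher in the resistant group, of one higher by a smaller margin, of the feedback regulator, and of p53 itself.
Cdkn1a: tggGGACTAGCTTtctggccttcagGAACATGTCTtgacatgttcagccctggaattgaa
Ccng1: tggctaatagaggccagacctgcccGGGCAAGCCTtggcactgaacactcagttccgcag
Mdm2: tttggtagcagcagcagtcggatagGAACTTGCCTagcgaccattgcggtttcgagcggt
Trp53: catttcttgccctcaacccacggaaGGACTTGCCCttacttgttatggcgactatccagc
The stretch of Cdkn1a lies at chr17:29090903-29090962 on the plus strand, before the more upstream of its 2 RefSeq starts, and holds 2 half-sites no more than 13 bases apart. That of Ccng1 lies at chr11:40755437-40755496 on the minus strand, that of Mdm2 at chr10:117710910-117710969 on the minus strand and that of Trp53 at chr11:69580259-69580318 on the plus strand. Among the 25 members with an entry, 9 held a half-site (also Aen, Ei24, Gadd45a, Polk and Sesn1) and 1, Cdkn1a, held a pair. Over 27025 genes of the table, 8.2% held a half-site and 0.0666% a pair. The consensus reads the same on both strands. Only exact matches were counted and put in capitals. In Cdkn1a the 10 letters directly after GAACATGTCT missed the consensus at 1 letter and were left out. Which of these elements p53 binds was not tested. The windows of Phlda3, Psrc1, Mdm4 and Tob1 held no match. Zmat3, Rrm2b, Xpc, Ddb2 and Trp53inp1 had no entry.

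Phlda3 (chromosome 1, 135766085 to 135769134), which encodes a small lipid-binding protein that restrains the kinase Akt, stood at 2.10 CPM or less outside the resistant group. It had 5, 7 and 26 reads in sensitive libraries 1 to 3 (0.282, 0.411 and 1.22 CPM) and 103, 89 and 191 reads in resistant libraries 1 to 3 (7.10, 5.39 and 9.12 CPM). Young wild type had 0, 6 and 4 reads (0, 0.257 and 0.264 CPM) and old wild type 43, 18 and 5 reads (2.10, 0.921 and 0.269 CPM). A count of 0 allows up to 3 reads, or 0.246 CPM in that library. The resistant group did not overlap any other, and its mean was 11.3-fold that of the sensitive group. The log2 fold change was 3.46 ± 0.78 (SE, edgeR adjusted p 0.223) and 3.60 ± 0.60 with the date block (adjusted p 0.011). Within the block it was 0.0783 without the 30 May pair, 0.0806 without the 31 May pair and 0.0487 without the 7 May pair, and over 15 alternatives it ran from 0.000589 to 0.777.

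Zmat3 (chromosome 3, 32334792 to 32365665) encodes an RNA-binding zinc finger protein that regulates splicing and growth. It read 22.9, 26.5 and 12.2 CPM in sensitive libraries 1 to 3 and 37.8, 42.8 and 34.9 CPM in resistant libraries 1 to 3. In wild type it read 18.5, 18.7 and 20.5 CPM when young and 21.1, 30.4 and 22.7 CPM when old. The resistant libraries were the highest 3 of 12, and on each date the resistant library was above its partner, by 1.65-fold, 1.61-fold and 2.86-fold. edgeR put the log2 fold change at 0.91 ± 0.26 (SE, edgeR adjusted p 0.42), and 0.97 ± 0.17 with the date block (adjusted p 0.0124). Without the 7 May pair the blocked adjusted p was 0.0746, and over 15 alternatives it ran from 0.0124 to 1.

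Psrc1 (chromosome 3, 108383804 to 108388231), which encodes a microtubule-binding protein of the mitotic spindle, is known as a p53-responsive gene. It read 2.76, 1.53 and 4.16 CPM in sensitive libraries 1 to 3 and 6.62, 7.87 and 9.65 CPM in resistant libraries 1 to 3. Wild type read 3.37, 1.24 and 2.11 CPM when young and 3.28, 1.43 and 1.83 CPM when old. The 3 resistant libraries again lay above the other 9. This was a log2 fold change of 1.51 ± 0.46 (SE, edgeR adjusted p 0.488) and 1.58 ± 0.29 with the date block (adjusted p 0.0124). Leaving out the 30 May, 31 May or 7 May pair gave a blocked adjusted p of 0.0578, 0.103 and 0.0582, and 15 alternatives spanned 0.0124 to 1.

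Ccng1 (chromosome 11, 40748552 to 40755309) encodes cyclin G1, which recruits a phosphatase to Mdm2. It was abundant in every group, at 145, 146 and 108 CPM in sensitive libraries 1 to 3 and at 190, 170 and 181 CPM in resistant libraries 1 to 3. Wild type read 69.3, 130 and 131 CPM when young and 78.6, 144 and 138 CPM when old, so that the resistant group lay above all other libraries and the 24 March pair below all others. The fitted log2 fold change was 0.44 ± 0.28 (SE, edgeR adjusted p 1) and 0.45 ± 0.10 with the date block (adjusted p 0.034). It was 0.144 without the 30 May pair, 0.297 without the 7 May pair and 0.0494 without the 31 May pair, and 15 alternatives spanned 0.034 to 1.

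Mdm4 (chromosome 1, 132986105 to 133030587), the relative of Mdm2 that binds and silences p53, differed more by date than by group. It read 281, 267 and 132 CPM in sensitive libraries 1 to 3 and 338, 363 and 203 CPM in resistant libraries 1 to 3, so the groups overlapped, although the resistant library was higher on each date. In wild type it read 601, 283 and 337 CPM when young and 588, 289 and 280 CPM when old. Without the block the log2 fold change was 0.41 ± 0.40 (SE, edgeR adjusted p 1), and with it 0.44 ± 0.10 (adjusted p 0.0332). The blocked call was lost without the 30 May, 31 May or 7 May pair, at adjusted p 0.0853, 0.155 and 0.294, and 15 alternatives spanned 0.0332 to 1.

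Tob1 (chromosome 11, 94209842 to 94215495), an antiproliferative gene of the same family as Btg2, was the 1 member called lower in the resistant group. It read 44.7, 33.1 and 51.1 CPM in sensitive libraries 1 to 3 and 24.7, 23.6 and 30.4 CPM in resistant libraries 1 to 3, with no overlap. Wild type read 31.4, 22.3 and 32.8 CPM when young and 14.7, 14.8 and 16.6 CPM when old. The resistant libraries thus overlapped the young ones, and all sensitive libraries lay above the young ones. The log2 fold change, resistant minus sensitive, was -0.71 ± 0.21 (SE, edgeR adjusted p 0.449) and -0.70 ± 0.12 with the date block (adjusted p 0.0115). The blocked adjusted p was 0.124 without the 30 May pair, 0.0972 without the 7 May pair and 0.0405 without the 31 May pair, and 15 alternatives spanned 0.0115 to 1.

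**Figure D2:**
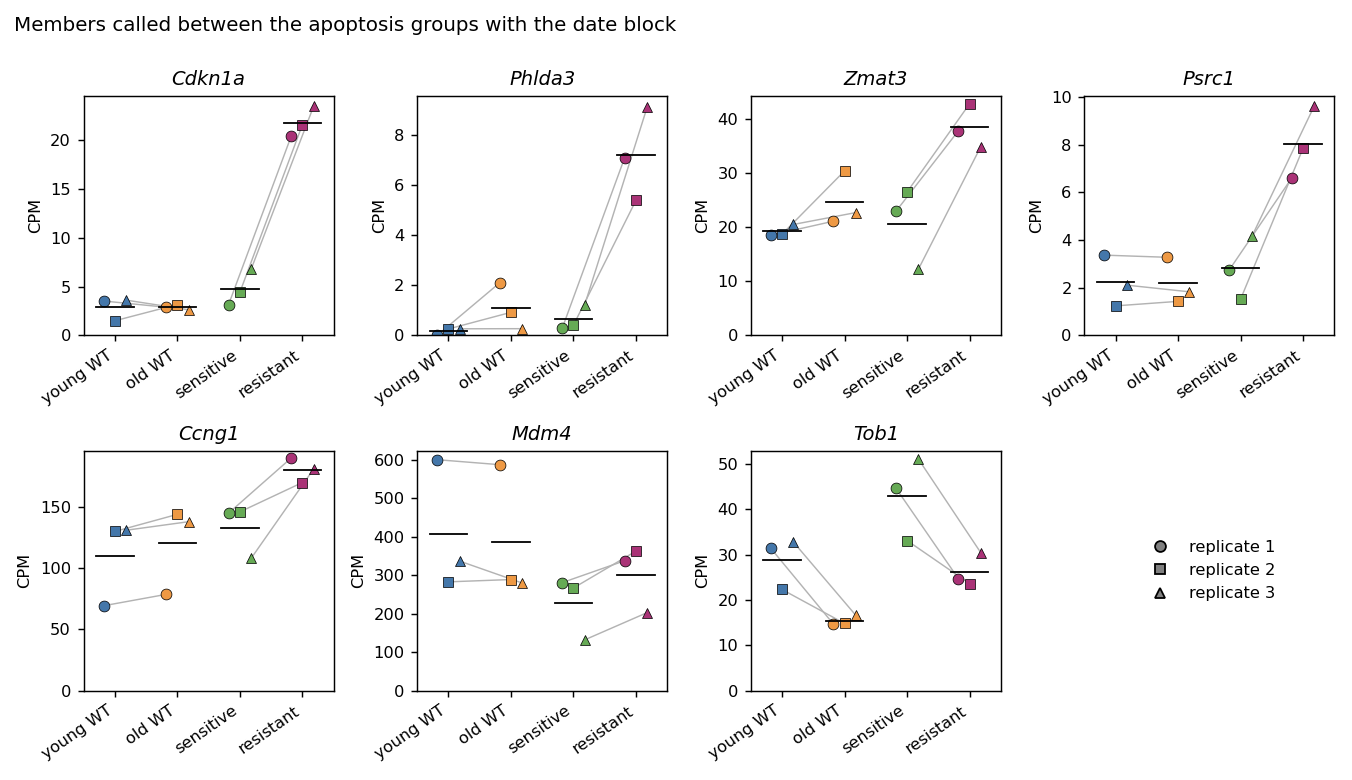
CPM in each of the 12 libraries for the 7 members called between the apoptosis groups with the date block, each axis starting at 0; grey lines join libraries of one collection date and black bars are group means (n = 3). Resistant libraries lie above all other 9 for Cdkn1a, Phlda3, Zmat3, Psrc1 and Ccng1, while for Mdm4 the groups overlap and for Tob1 they fall below the sensitive libraries.

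Counted over all genes, 0.927% (126 of 13592) had all 3 resistant libraries above the other 9, and 5 of 29 members did. The regulators at the head of the pathway did not show such a gap. Trp53 read 159, 145 and 141 CPM in sensitive libraries 1 to 3 and 131, 138 and 130 CPM in resistant ones, lower on each date, with a log2 fold change of -0.16 ± 0.16 (SE, edgeR adjusted p 1). Mdm2 read 123, 115 and 115 CPM against 129, 130 and 127 CPM, a log2 fold change of 0.13 ± 0.16 (edgeR adjusted p 1). For both genes the groups did not overlap, and neither was called. With the date block the log2 fold change was -0.15 ± 0.12 for Trp53 (adjusted p 0.553) and 0.14 ± 0.08 for Mdm2 (adjusted p 0.437).

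The remaining members were not called between the apoptosis groups by edgeR, with or without the date block. Among the sestrins, which restrain oxidative stress and mTORC1, the log2 fold change was 0.16 ± 0.20 for Sesn1, 0.62 ± 0.34 for Sesn2 and 0.04 ± 0.35 for Sesn3. Among DNA repair and nucleotide supply genes the values were Xpc 0.03 ± 0.14, Ddb2 0.04 ± 0.45, Ercc5 -0.05 ± 0.20, Polk 0.32 ± 0.28 and the ribonucleotide reductase subunit Rrm2b 0.01 ± 0.18. Gadd45a, which takes part in arrest and repair, had 0.08 ± 0.29. Of the genes tied to cell death, the nuclease Aen had 0.13 ± 0.15, Ei24 0.25 ± 0.34 and Pidd1, the scaffold that activates caspase-2, -0.66 ± 0.50. Trp53inp1 and Trp53inp2 had 0.05 ± 0.24 and -1.18 ± 0.41, the latter at an unadjusted p of 0.0141 and an edgeR adjusted p of 0.648. Trp53inp2 read 19.2, 13.3 and 45.3 CPM in sensitive libraries 1 to 3 and 8.62, 12 and 13.6 CPM in resistant ones. The groups thus overlapped, and sensitive library 3 was the highest of all libraries. The metabolic gene Tigar had -0.03 ± 0.18, the thiamine transporter Slc19a2 0.38 ± 0.20, the ubiquitin ligase gene Cgrrf1 -0.33 ± 0.25 and Btg2 -0.21 ± 0.18.

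The polo-like kinase genes varied with single libraries. Plk3 read 11.2, 9.93 and 27.9 CPM in sensitive libraries 1 to 3 and 5.79, 7.21 and 10.3 CPM in resistant ones, and its log2 fold change was -1.07 ± 0.57 (SE, edgeR adjusted p 1, and 0.0545 with the block). Plk2 read 9.36, 15.5 and 114 CPM against 14.6, 10.4 and 43.7 CPM. Its log2 fold change was -1.01 ± 0.95, and with 1 library left out at a time it ran from -1.88 to 0.90, so its direction rested on single libraries. Plk2 stood highest in sensitive library 3, resistant library 3 and young library 1 (41.5 CPM), the same libraries that were highest in the immediate early sum, and Plk3 was high in sensitive library 3 and in both 24 March libraries (26.2 and 24.8 CPM). The part of the immediate early response in these values was not tested.

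**Figure D3:**
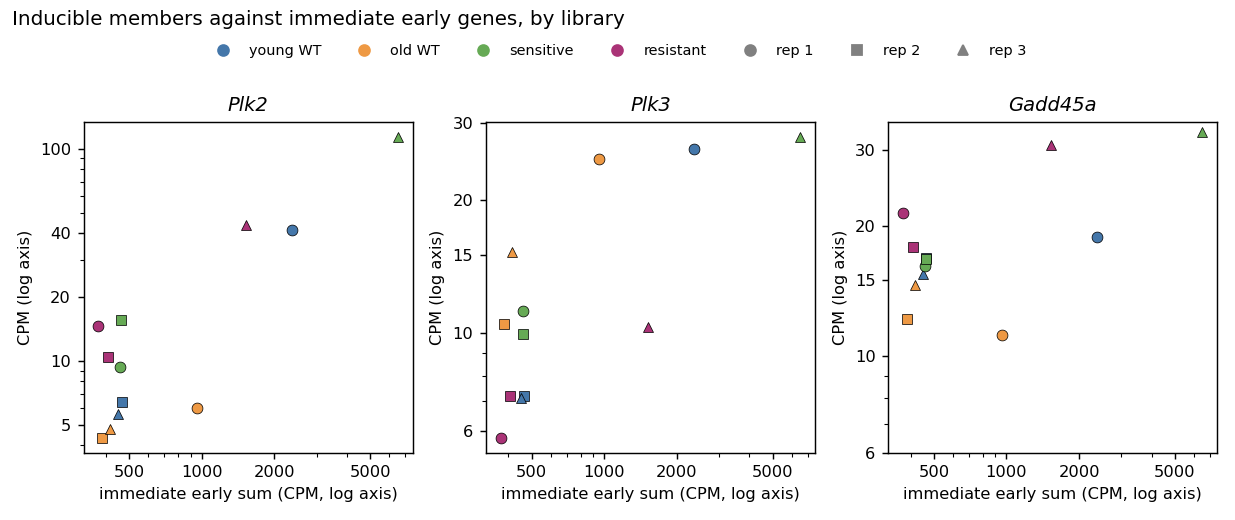
CPM of Plk2, Plk3 and Gadd45a in each library against the summed CPM of 12 immediate early genes, both on log axes, with colour for the group and shape for the replicate. Sensitive library 3, at a sum of 6506 CPM, is the highest library in all 3 panels.

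Sensitive library 3 and young library 1 most often stood at the edge of the range. Of the 29 members tested, sensitive library 3 held the highest value for 7 and the lowest for 5, and young library 1 the highest for 7 and the lowest for 4. Ddb2, which recognises ultraviolet damage, read 154 CPM in young library 1 and 121 CPM in old library 1, against 40.4 to 55.8 CPM in the other 10. Pidd1 read 80.7 and 43.5 CPM in those libraries, against 14.6 to 28.2 CPM elsewhere. Ei24 read 24.4 and 27.7 CPM there and 47.1 to 69.4 CPM elsewhere. Ddb2 overlaps the gene Acp2 by 2554 bases, and without strand information some of its reads cannot be assigned with certainty; smaller overlaps touch Gadd45a, Zmat3 and Plk3.

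**Figure D4:**
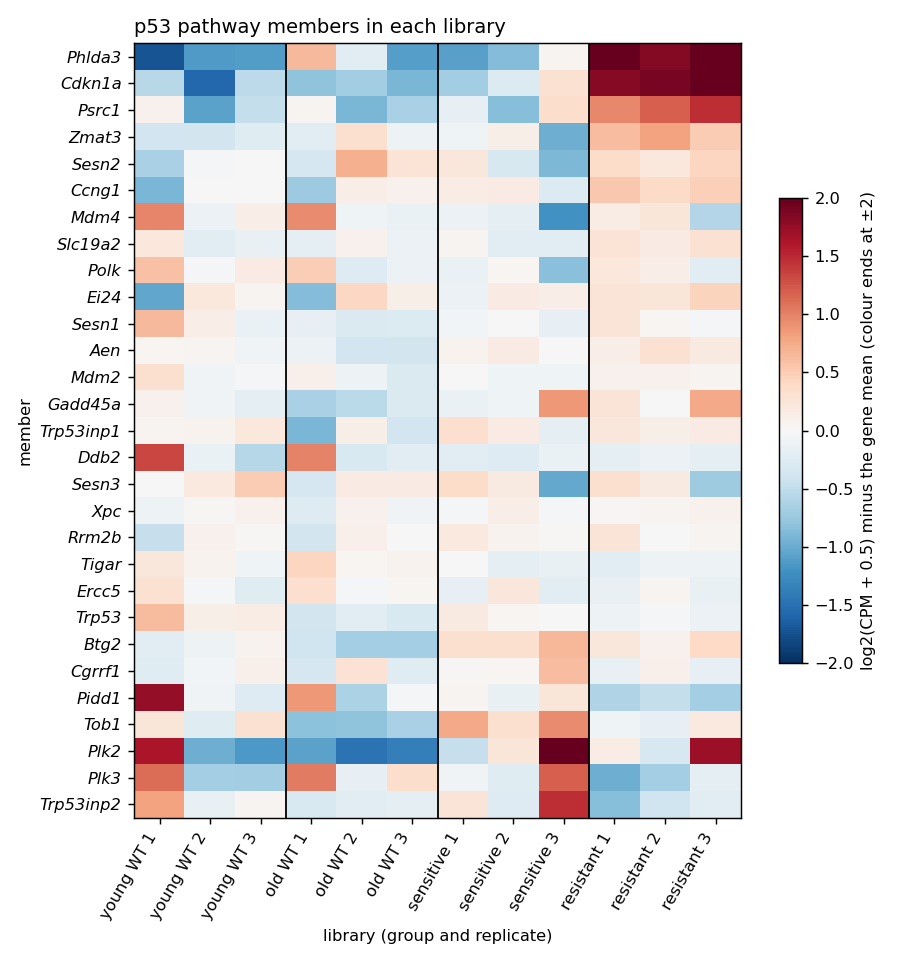
Log2(CPM + 0.5) of each of the 29 members tested in each of the 12 libraries, minus the mean of that gene, with colours ending at 2 above and below; rows are ordered by the resistant minus sensitive log2 fold change. The top rows are red in the 3 resistant libraries, and young library 1, old library 1 and sensitive library 3 differ from their own groups in many rows.

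With age the 4 members called by edgeR with the date block were all lower in old wild-type mice, and they included Trp53 itself. In the fit over 4 groups 0 of 29 members were called, against 273 of 13592 genes (2.01%), and 5 members had an unadjusted p under 0.05, 1 higher and 4 lower, against 11.6% of all genes. With the date block 4 members fell (Trp53, Tob1, Btg2 and Sesn1), against 7.03% of all genes, and 0 rose, against 7.89%. DESeq2 called 3 members (Trp53, Tob1 and Phlda3), against 4.82% of its genes. The old libraries lay below all young ones in 7 of 29 members (Trp53, Trp53inp2, Sesn1, Aen, Btg2, Gadd45a and Tob1), against 6.96% of all genes, and above in 2 (Zmat3 and Phlda3), against 9.16%. The median log2 fold change of the members was -0.08, beside -0.035 over all genes.

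Trp53 (chromosome 11, 69580348 to 69591873) read 219, 153 and 156 CPM in young libraries 1 to 3 and 109, 120 and 114 CPM in old libraries 1 to 3. The groups did not overlap, and the old library was lower on each date. The ratio of old to young was 0.496 on 24 March, 0.786 on 11 April and 0.73 on 12 April. The log2 fold change was -0.62 ± 0.16 (SE, n = 3 and 3, edgeR adjusted p 0.0865) and -0.60 ± 0.12 with the date block (adjusted p 0.00754). Leaving out 1 date at a time kept the blocked adjusted p between 0.00841 and 0.0316. Without the 24 March pair the blocked log2 fold change was -0.40. The largest adjusted p over 15 alternatives was 0.408, in a fit of the 6 wild-type libraries alone.

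Tob1 read 31.4, 22.3 and 32.8 CPM in young libraries 1 to 3 and 14.7, 14.8 and 16.6 CPM in old ones. All old libraries were below all young ones and also below every Bak1-deficient library. Its log2 fold change with age was -0.91 ± 0.21 (SE, edgeR adjusted p 0.0551) and -0.89 ± 0.13 with the date block (adjusted p 0.00146). The blocked adjusted p stayed between 0.00241 and 0.0134 whichever date was left out, and over 15 alternatives it ran from 0.00146 to 0.215. Tob1 was thus the 1 member called lower with the block in both comparisons. The old libraries lay below the young ones, whereas the resistant libraries overlapped the young ones and lay below raised sensitive libraries.

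Btg2 (chromosome 1, 134074865 to 134079155), which slows entry into S phase and is known in B cells as a brake on proliferation, read 306, 329 and 370 CPM in young libraries 1 to 3 and 269, 220 and 220 CPM in old ones. Its log2 fold change was -0.50 ± 0.18 (SE, edgeR adjusted p 0.246) and -0.51 ± 0.11 with the date block (adjusted p 0.0111). The blocked call was kept without the 24 March pair (0.00628) and missed the threshold without the 11 April pair (0.0607) or the 12 April pair (0.0545), and 15 alternatives spanned 0.00628 to 0.578. Sesn1 (chromosome 10, 41810574 to 41908436) read 302, 212 and 175 CPM when young and 171, 157 and 159 CPM when old. The highest old value lay just under the lowest young value. Its log2 fold change was -0.50 ± 0.20 (SE, edgeR adjusted p 0.318) and -0.46 ± 0.12 with the date block (adjusted p 0.0244), which was 0.144 without the 24 March pair, 0.0727 without the 11 April pair and 0.00729 without the 12 April pair. Its 15 alternatives spanned 0.00729 to 0.727.

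**Figure D5:**
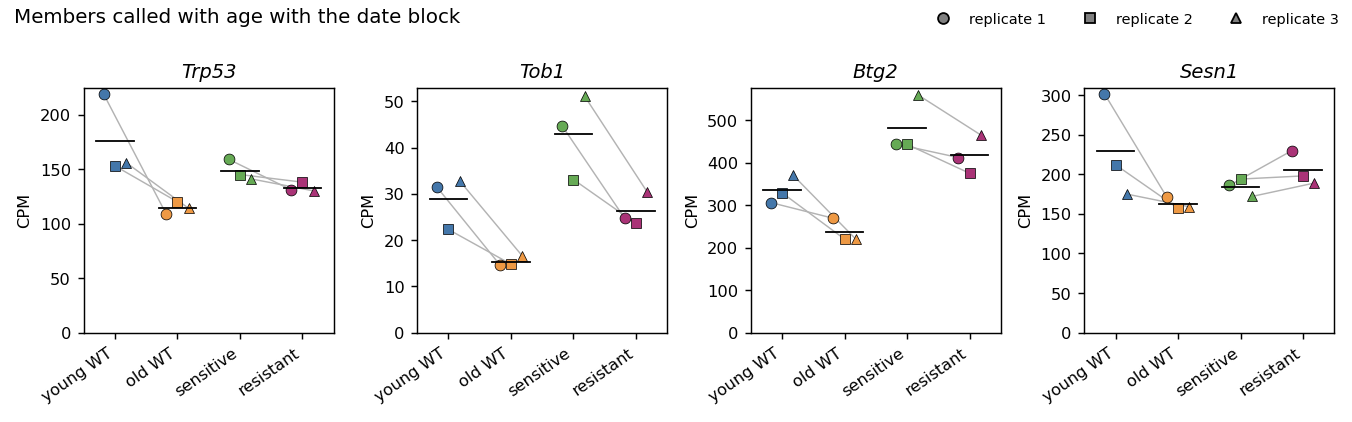
CPM of the 4 members called with age with the date block, in each of the 12 libraries, with axes from 0; grey lines join libraries of one date and black bars are group means (n = 3). The 3 old wild-type libraries lie below the 3 young ones in each panel.

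The targets that were highest in the resistant group were not called with age by edgeR over all 12 libraries, with or without the block. Cdkn1a had a log2 fold change of 0.02 ± 0.36 (SE, edgeR adjusted p 0.998). Psrc1 had -0.02 ± 0.47 and Ccng1 0.13 ± 0.28. Zmat3 had 0.36 ± 0.26, and its lowest old value (21.1 CPM) lay just above its highest young value (20.5 CPM). Phlda3 had 2.51 ± 0.88 on 10 reads in the young group in all, with an edgeR adjusted p of 0.233, 0.0855 with the block and 0.0487 with DESeq2. Within the block it was called without the 12 April pair (0.0377) and not without the 11 April pair (0.181) or the 24 March pair (0.326). Old library 3 and young library 3 were nearly level for Phlda3, at 0.269 and 0.264 CPM. Mdm2 had -0.18 ± 0.16 and Mdm4 -0.08 ± 0.40.

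Markers of some other cell types also differed between the wild-type groups. In the plasma cell, granulocyte and erythroid lists 0 markers were called with age, with or without the block. The plasma cell sum was 348 to 646 CPM in young and 306 to 1521 CPM in old libraries. Its highest value was in old library 2, where Jchain read 1049 CPM. The sum of 7 stromal markers was 3.45 to 23.8 CPM in young and 21.8 to 172 CPM in old libraries, with 6 of 6 markers tested higher with the block, against 7.89% of all genes. T cell markers summed to 36.8 to 74.1 CPM in young and 44.7 to 80.1 CPM in old, with 5 of 7 higher with the block. Lck made up most of this sum in every library, at 34.3 to 70.5 CPM in young and 26.2 to 60.1 CPM in old. Apart from Lck, the other 6 T cell markers lay higher in all old libraries than in any young one, against 9.16% of all genes. NK cell markers summed to 0.385 to 2.24 CPM in young and 3.94 to 6.12 CPM in old, with 3 of 3 tested higher with the block. Monocyte and macrophage markers summed to 16 to 126 and 45 to 188 CPM, with 4 of 5 tested higher with the block. The T cell, NK cell and monocyte and macrophage counts stood against 7.89% of all genes higher with the block. Markers of immature and precursor B cells summed to 63 to 106 CPM in young and 15.8 to 33.4 CPM in old. With the block 6 of 9 were lower, against 7.03% of all genes, among them Cd93, the marker that the sort had gated out. Without the block Cxcl12, Cd3g, Tcf7, Ncr1 and Adgre1 were called higher and Cd93, Lef1 and Sox4 lower with age. Over all genes 2.01% were called in that fit. In these lists 0 markers were at 0 in all libraries of a group. In bulk RNA fewer cells of a type and less RNA per cell cannot be told apart, and the part of these cells in the lower Trp53, Tob1, Btg2 and Sesn1 was not tested. Between the apoptosis groups 0 markers of other cell types were called without the block. The immature and precursor B cell sum was 84.5 to 90.7 CPM in sensitive and 68 to 101 CPM in resistant libraries. Of its 9 markers, 5 lay lower in all 3 resistant libraries than in any sensitive one, against 8.31% of all genes. The 1 marker that lay higher in all 3 was Rag1, against 6.32% of all genes. Rag1 read 15.3, 13.6 and 3.55 CPM in sensitive libraries 1 to 3 and 46.3, 26.2 and 28.8 CPM in resistant ones. The median log2 fold change of the list was -0.84, and Cd93 and Lef1 were lower with the block, against 1.97% of all genes. T cell markers summed to 40.5 to 45.1 and 43.6 to 59.6 CPM, with Tcf7 alone of 7 called with the block (higher). Monocyte and macrophage markers summed to 31.9 to 126 and 41.9 to 57 CPM, with Csf1r alone of 5 tested called with the block (higher). Over all genes 1.43% were higher with the block. The granulocyte sum was 77.4 to 735 CPM in sensitive and 29.3 to 68.7 CPM in resistant libraries, with 0 of 7 markers called with the block. The part of these cells in the members' differences between the apoptosis groups was not tested.

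The difference of the age effect and the genotype effect was tested directly. In the fit over 4 groups 0 of 29 members were called, against 34 of 13592 genes (0.25%), and 3 had an unadjusted p under 0.05, against 6.88% of all genes. With the date block 5 members were called, against 7.03% of all genes: Cdkn1a at -2.14 ± 0.42 (SE, log2, age minus genotype, edgeR adjusted p 0.0149), Psrc1 at -1.59 ± 0.42 (0.0439), Sesn1 at -0.62 ± 0.17 (0.048), Mdm4 at -0.53 ± 0.14 (0.043) and Plk3 at 1.47 ± 0.33 (0.0274). DESeq2 called Cdkn1a alone among the members, at an adjusted p of 0.00533. Leaving out 1 of the 6 dates at a time left 0 to 3 members called, and Cdkn1a ran from 0.00304 to 0.0588, missing the threshold without the 24 March pair (0.0547) or the 30 May pair (0.0588). Psrc1 and Mdm4 lost the call with each of the 6 dates left out, at 0.059 to 0.139 and at 0.0535 to 0.135. Sesn1 lost it with 5 of the 6 dates left out (0.0142 to 0.152), all but 12 April, and Plk3 with 3 of the 6 (0.0189 to 0.0899), 11 April, 30 May and 7 May. For Phlda3 and Zmat3, both higher in resistant cells, the difference was not called, at -0.96 ± 1.22 (adjusted p 1) and -0.54 ± 0.37 (adjusted p 0.959).

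Sensitive cells, which lack Bak and carry the floxed Bax allele, were also set against young wild type. The groups shared no collection date, so genotype and date cannot be told apart. edgeR called 0 of 29 members and 0 of 13592 genes (0%), with 2 members (Btg2 and Tob1, both higher in sensitive cells) and 2.73% of all genes at an unadjusted p under 0.05, and DESeq2 called 0 members and 15 genes. The 3 sensitive libraries lay above the 3 young ones in 3 of 29 members (Phlda3, Btg2 and Tob1), against 4.57% of all genes, and below in 1 (Mdm4), against 4.25%. The log2 fold change was 0.75 ± 0.36 for Cdkn1a (SE, adjusted p 0.824), 0.53 ± 0.18 for Btg2, 0.58 ± 0.21 for Tob1 and -0.85 ± 0.41 for Mdm4. The median over the members was 0.07, beside -0.014 over all genes. This comparison shares its young libraries with the age comparison and its sensitive libraries with the genotype comparison.

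Genes around the members were read from lists chosen by function. Of the targets in the BCL-2 and death receptor families, 7 of 8 were tested between the apoptosis groups. Bbc3, which encodes the BH3-only protein PUMA, rose from 4.68, 4.76 and 8.27 CPM in sensitive libraries 1 to 3 to 26.6, 26.5 and 46.8 CPM in resistant ones, with a log2 fold change of 2.49 ± 0.34 (SE, edgeR adjusted p 0.0395). Bax, deleted by design, was the only member of that list called lower, and Fas was called higher with the block alone (1.23 ± 0.27, adjusted p 0.0359). With age Fas, the death receptor, rose from 4.35, 3.34 and 4.94 CPM in young libraries 1 to 3 to 22.4, 20 and 13.7 CPM in old ones (2.15 ± 0.44, edgeR adjusted p 0.0318). With the block 3 of the 7 were higher with age (Fas, Bbc3 and Tnfrsf10b), against 7.89% of all genes, and 1 was lower (Apaf1), against 7.03%. The median of these 7 with age was 0.34, beside -0.035 over all genes. Of 10 other p53 targets tested, 0 were called without the block and 3 were higher with it between the apoptosis groups, against 1.43% of all genes. These were the long noncoding RNA genes Trp53cor1 and Pvt1, and Inka2. Trp53cor1 (chromosome 17, 29057474 to 29079126), which lies next to Cdkn1a, had 0, 1 and 5 reads in sensitive libraries 1 to 3 and 41, 28 and 56 reads in resistant ones, and 0 reads in all 3 young libraries. With age 0 of these 10 targets were called without the block, and with it 3 were higher (Fbxw7, Abhd4 and Pvt1), against 7.89% of all genes, and 0 were lower. The old libraries lay above all young ones in 5 of the 10, against 9.16% of all genes. The median of the 10 was 0.40, beside -0.035 over all genes.

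Upstream of p53, of 13 DNA damage kinases and sensors, 0 were called without the block between the apoptosis groups, and with it Mdc1 was higher and Chek1 and H2ax were lower, against 1.43% and 1.97% of all genes. Of 12 other regulators of p53 tested, 0 were called between these groups with or without the block. With age the block called Chek2, Trp53bp1 and H2ax lower among the kinases and sensors, and among the other regulators Ppm1d and Ep300 lower and Cdkn2a higher, against 7.03% of all genes lower and 7.89% higher. Cdkn2a, which encodes p16 and the Mdm2 inhibitor p19ARF, read 0.246, 0.171 and 0.33 CPM in young libraries 1 to 3 and 2.20, 3.22 and 0.752 CPM in old ones (2.92 ± 0.72 with the block, edgeR adjusted p 0.0211, and 0.234 without it).

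Several cell cycle genes on lists tied to p21 were lower in the resistant group with the date block. The part of Cdkn1a in these lower levels was not tested. Ccnd2, the D-type cyclin of B cell growth, fell from 123 ± 12.2 CPM (SD, n = 3) in sensitive libraries to 28.8 ± 3.4 CPM in resistant ones (log2 fold change -2.09 ± 0.30, SE, edgeR adjusted p 0.0449), and Ccnd3 was lower with the block alone. These were 2 of 8 cyclins and kinases bound by p21, against 1.97% of all genes lower with the block. The median log2 fold change of the 8 was -0.53, beside -0.016 over all genes. With age 3 of the 8 were lower with the block (Cdk2, Cdk6 and Ccnd3), against 7.03% of all genes. Of 18 genes repressed through p21 and the DREAM complex, which shuts off cell division genes, 0 passed without the block. With it 12 were lower, against 1.97% of all genes (Cdk1, Ccnb2, Ccna2, Plk1, Birc5, Bub1, Cdc20, Aurka, Top2a, Kif20a, Rrm2 and E2f1), and the median was -1.54. Their sum was 631, 359 and 711 CPM in sensitive libraries 1 to 3 and 216, 180 and 379 CPM in resistant ones, so the groups overlapped, and on each date the resistant library was lower. With age 2 of the 18 were lower with the block, Cenpa and Mcm5, against 7.03% of all genes. Of 10 integrated stress response genes tested, Trib3 and Atf5 rose between the apoptosis groups (2.97 ± 0.33, edgeR adjusted p 0.0135, and 1.55 ± 0.22, adjusted p 0.0449). Over all genes 0.0441% were called in that fit. Trib3 read 1.03 to 1.13 CPM in sensitive libraries against 6.07 to 9.98 CPM in resistant ones. With the block Psat1 was called lower, against 1.97% of all genes. The median log2 fold change of the 10 was -0.20, beside -0.016 over all genes. All resistant libraries stood above all sensitive ones in 4 of the 10, against 6.32% of all genes, and below in 0, against 8.31%. They were Trib3, Atf5, Asns and Chac1, the last with 1 to 14 reads per library in these groups. With 1 library left out at a time, the edgeR adjusted p without the block rose as high as 0.227 for Bbc3, 0.281 for Ccnd2, 0.228 for Atf5, 0.0966 for Trib3 and, with age, 0.145 for Fas, and 0 genes were called between the apoptosis groups without sensitive library 1 or without resistant library 3.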

How the data were processed

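The 12 libraries were polyadenylated RNA made into libraries with the TruSeq RNA v2 kit, per the labels' protocols. The authors deposited 1 table of raw counts of reads for each gene and library. Subread, featureCounts and mm10 are named without their roles, per the submitters' processing notes. Versions, annotation and strand setting are not given in the sources used here. Groups and replicate numbers came from the labels, and 0 columns were left unused. Symbols came from RefSeq GRCm38.p6, which matched 25275 of 27179 genes, and exon lengths from GENCODE M21.

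edgeR 4.0.16 (R 4.3.3) was run with TMM factors, filterByExpr with a minimum of 10 reads and robust quasi-likelihood fits over all 12 libraries (8 residual degrees of freedom), which left 13592 genes, with Benjamini-Hochberg adjustment over all of them and a threshold of 0.05. It was tested on simulated data first. A standard error is the absolute log2 fold change divided by the square root of F. The replicate block replaced group means with a term per collection date (4 residual degrees of freedom). The labels give the same date to same-numbered libraries of a pair of groups, and those deviated together (correlations 0.745, 0.512 and 0.555 in wild type, 0.284, 0.325 and 0.487 in the Bak1-deficient groups). The label of the 24 March date gives the year 2006 and the others 2016. Alternatives were DESeq2 1.42.0, RLE scaling in edgeR, no filter, the 6 libraries compared, the block, leaving out each library and leaving out the 24 March libraries. Leaving out the 7 May libraries, or 1 date within the block, was chosen after seeing the data.

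The members and lists were chosen with earlier results of these data known, so no set was tested. Values per library are given for members called in any comparison by edgeR, DESeq2 or the block, for the 5 of lowest p in the genotype and age comparisons, and for Trp53, Mdm2 and Cdkn1a. From other lists, genes called without the block and up to 3 more of lowest p could be given values. Ranges of counts cover counting error only.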

Additional observations from a re-analysis of the deposited data

How the results depend on the processing

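No member was called without the block in any comparison by edgeR with its filter, with all libraries or without any 1 of them. Under the alternatives 299 values were counted for single members, only for members called by DESeq2 or with the block in that comparison. Of these, 251 stayed on their side of the threshold, 48 crossed into a call and 0 changed sign. With 0 members called in the fit over 4 groups, no value could cross out of a call. Members not called, such as Plk2, whose direction turned with single libraries left out, are not in this count. With the replicate block (pairing by date) 463, 2028 and 955 genes were called for genotype, age and their difference, in place of 6, 273 and 34, and 7, 4 and 5 members in place of 0. The median log2 fold change of the members between the apoptosis groups was 0.09 with the block, against 0.05. DESeq2 called 127, 735, 247 and, for sensitive against young, 15 genes, and 2, 3, 1 and 0 members. With no filter on low counts 11 genes and 1 member (Cdkn1a) were called for genotype and 3 genes for sensitive against young. The 6 wild-type libraries alone gave 1 gene for age, with fewer degrees of freedom. Without the 24 March libraries 3 genes were called for sensitive against young and 75 for the difference. Without the 7 May libraries 0 genes were called for genotype, 1 for sensitive against young and 4 for the difference.

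Leaving out 1 library at a time gave 0 to 5 genes for genotype, 75 to 238 for age, 0 to 1 for sensitive against young and 2 to 37 for the difference. The members' medians then ran from 0.06 to 0.13 for genotype, from -0.28 to -0.02 for age and from -0.03 to 0.10 for sensitive against young, where the sign turned without sensitive library 2. Leaving out 1 date within the block gave 131 to 173 genes for genotype (139 without 7 May), 925, 1175 and 1714 for age, and 250, 435, 551, 647, 677 and 901 for the difference, with 2 to 5, 3 to 6 and 0 to 3 members, and medians of 0.08 to 0.14 for genotype and -0.20 to -0.04 for age. The cause of these differences was not tested. Low counts limit Phlda3, Psrc1 and Ak1.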
